A study of Mus musculus with 15 samples.

Results

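Genes of DNA replication and of mitosis were followed in ovaries of UM-HET3 mice, a stock from crosses of inbred strains in which each mouse is genetically distinct. The 48 genes were chosen by name, 20 for replication and 28 for mitosis, and were kept where at least 5 of the 15 libraries had a listed value of 10 or more. All 48 were listed and passed that filter, among 24656 genes listed and 17569 that passed. The first of 3 groups was 12 months old and had received canagliflozin, an inhibitor of the renal glucose transporter SGLT2, from 6 to 12 months of age. The second group, called 12-month controls, had the same age and no drug, and the third, called 6-month controls, was killed at the age at which dosing of the first began. Each group had 5 libraries of polyadenylated RNA, and every group was of the UM-HET3 stock. The labels describe RNA from 1 ovary per mouse for the canagliflozin and 12-month control groups, and the extraction for the 6-month controls, the dose and the stage of the oestrous cycle are not stated there.

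A dividing cell copies its DNA in S phase and separates the copies in mitosis. Origins are licensed when Cdc6 and Cdt1 load the MCM helicase, cyclin E with its kinase and E2F factors drive entry into S phase, and Cdc45 and the GINS complex switch the helicase on. Mitosis follows on a later wave of transcription by B-Myb, FoxM1 and the MuvB complex, with cyclin B and Cdk1 driving entry and the spindle checkpoint holding back anaphase until all kinetochores are attached. In the adult ovary the granulosa cells of growing follicles are a main dividing population, while oocytes rest in meiosis and store messenger RNA for later divisions.

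Canagliflozin replicate 2 was the shallowest library, at 8472205 recovered reads, and the deepest had 13629491. Values are size-factor-normalised reads, and fold changes were taken after adding 1 and converting to log2, so those of low genes come out too small. A gene was called at a Benjamini-Hochberg adjusted p under 0.05 from limma, fitted over all 17569 genes and all 15 libraries. Nothing in the labels says whether libraries were made in batches, so a batch that followed the groups cannot be told apart from them. Markers of ovarian cells were present in every library, with summed levels of at least 27563 normalised reads over 13 granulosa cell markers and at least 2015 over 16 oocyte markers, of which 14 passed the filter.

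Levels of the genes spanned a wide range. The lowest value in any library was 30.6 normalised reads and the highest 1499, and the fewest reads behind any value were 22. Per kilobase of exon, the median level was 55.3 for replication genes and 57.9 for mitosis genes. Pcna, the sliding clamp that holds DNA polymerase on its template, had the highest level of the replication genes at 389 per kilobase, and Mcm10, an initiation factor, the lowest at 14.2. Among mitosis genes Cdc20, which activates the ubiquitin ligase that starts anaphase, was highest at 158 per kilobase, and Cdc25c, a phosphatase that activates Cdk1, was lowest at 12.0. Processed copies of 4 of these genes are listed separately in the table (Pcna-ps2, Ccnb1-ps, Tyms-ps and Ccnb2-ps). The copy Pcna-ps2 reached 348 normalised reads and Ccnb1-ps 85.1, so the values of Pcna and Ccnb1 are uncertain to the extent that counting split reads between them.

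The 2 modules differ in the motifs of their promoters, which is shown here because the modules are kept apart below. RefSeq promoters of build GRCm38.p6, each running from 250 bases before to 50 bases after the transcription start, were at hand for 37 of the 48 genes. The search used the cell cycle homology region of MuvB targets (TTTGAA, or in its other form TTCGAA), the CCAAT box of the factor NF-Y, and 4 forms of the E2F core (TTCCCGC, the form TTCGCGC, the form TTGCCGC and the form TTGGCGC), on both strands, and an E2F core and a CCAAT box can share letters. The first of these was present in 16 of 22 mitosis promoters (72.7%) and 3 of 15 replication promoters (20%), beside 19.4% of 27025 promoters of all genes. An E2F core was present in 3 of 22 mitosis promoters (13.6%) and 8 of 15 replication promoters (53.3%), beside 9.69% of all. CCAAT boxes were present in 17 of 22 mitosis promoters (77.3%) and 10 of 15 replication promoters (66.7%), beside 37.9% of all. These matches describe letters in a window and not bound sites.

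Promoters are printed for 4 genes named in the comparisons below, 2 of them with lower and 2 with higher mean values at 12 months than at 6 months. Of these only Mcm2 was called in the main limma fit, of all 15 libraries with 3 group means. Cdt1, Mki67 and Cenpa were called in some alternative fits, among them limma with array weights. Mcm5 and Mcm7, also called below but not printed, each hold 3 E2F cores and 3 CCAAT boxes, and Mcm7 also holds 1 homology region. Each line runs 5′ to 3′ on the strand of the gene, and capitals mark the matched motifs.
Mcm2: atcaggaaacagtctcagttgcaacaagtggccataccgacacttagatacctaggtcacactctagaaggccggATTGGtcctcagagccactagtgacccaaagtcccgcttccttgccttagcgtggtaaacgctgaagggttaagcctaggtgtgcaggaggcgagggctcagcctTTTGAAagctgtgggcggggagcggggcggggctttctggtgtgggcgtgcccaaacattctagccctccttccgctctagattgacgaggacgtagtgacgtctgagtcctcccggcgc
Cdt1: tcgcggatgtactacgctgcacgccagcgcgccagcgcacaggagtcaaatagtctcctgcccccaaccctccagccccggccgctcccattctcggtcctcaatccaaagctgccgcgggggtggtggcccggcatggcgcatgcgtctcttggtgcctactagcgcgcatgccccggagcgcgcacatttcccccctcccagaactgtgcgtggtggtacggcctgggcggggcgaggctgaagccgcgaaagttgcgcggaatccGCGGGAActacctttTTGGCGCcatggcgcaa
Mki67: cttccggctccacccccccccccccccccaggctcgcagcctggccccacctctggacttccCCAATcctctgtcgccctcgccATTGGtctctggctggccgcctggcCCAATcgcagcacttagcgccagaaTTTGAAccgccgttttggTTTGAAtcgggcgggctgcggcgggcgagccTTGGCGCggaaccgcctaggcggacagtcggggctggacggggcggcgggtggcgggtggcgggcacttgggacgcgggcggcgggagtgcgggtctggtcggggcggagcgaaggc
Cenpa: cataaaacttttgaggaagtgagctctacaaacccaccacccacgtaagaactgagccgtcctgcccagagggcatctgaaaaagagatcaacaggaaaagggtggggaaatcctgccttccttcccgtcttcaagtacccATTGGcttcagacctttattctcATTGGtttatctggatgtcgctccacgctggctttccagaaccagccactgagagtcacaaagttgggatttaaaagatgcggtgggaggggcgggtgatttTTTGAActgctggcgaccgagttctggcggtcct
The Mcm2 window (minus strand, chr6:88898731-88899030) holds a CCAAT box and a homology region but no E2F core by these letters. Cdt1 (plus strand, chr8:122567765-122568064) holds 2 E2F cores just after the start and neither of the other motifs. Mki67 (minus strand, chr7:135716330-135716629) holds all 3 kinds, with 3 CCAAT boxes, 2 homology regions and 1 E2F core. Cenpa (plus strand, chr5:30666636-30666935) holds 2 CCAAT boxes and a homology region that lies 17 bases into the transcript.

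Canagliflozin was compared with 12-month controls to ask what the drug changed at a given age. No replication or mitosis gene was called. By limma 0 of 48 passed, beside 0.00569% of all genes tested (1 gene), and edgeR and DESeq2 on recovered reads called 0 of 48 as well, beside 0.0512% and 0.336% of all genes. At an unadjusted p under 0.05 there were 2 of the 48, both lower and both of replication, beside 1616 of all genes. The median log2 fold change was -0.12 over replication genes and -0.08 over mitosis genes, beside -0.00 over all genes, and 37 of 48 values were negative. Both medians were positive without canagliflozin replicate 2, at 0.02 for replication and 0.09 for mitosis. In this comparison 0 of 48 genes had groups without overlap, beside 0.467% of all genes with canagliflozin lower and 0.586% with it higher.

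Ccne2, a cyclin E that activates Cdk2 at the start of S phase, had the smallest p of the replication genes in this comparison. It had 60.8, 43.2, 38.5, 48.6 and 40.0 normalised reads in canagliflozin ovaries, against 46.8, 68.9, 68.8, 54.4 and 82.5 in 12-month control ovaries. Canagliflozin replicates 1 and 4 lay within the range of the controls and the other 3 canagliflozin libraries were below all controls. The log2 fold change was -0.46 ± 0.18 (SE, limma adjusted p = 0.482, n = 5 per group). Its partner Ccne1, the other cyclin E, averaged 47.0 ± 9.60 in canagliflozin ovaries and 43.3 ± 11.5 in 12-month control ovaries (SD, n = 5 each), a log2 fold change of 0.13 ± 0.21. Mcm4, a subunit of the MCM helicase, was the other gene under an unadjusted p of 0.05, with a log2 fold change of -0.26 ± 0.12 (SE, limma adjusted p = 0.535, n = 5 per group). Bub1b, which encodes the checkpoint protein BubR1, had the smallest p of the mitosis genes. Bub1b had 378, 206, 383, 311 and 465 normalised reads in canagliflozin ovaries, against 355, 485, 436, 329 and 455 in 12-month control ovaries. Those groups overlapped widely, with canagliflozin replicate 2 the lowest of all, and the log2 fold change was -0.28 ± 0.18 (SE, limma adjusted p = 0.649).

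**Figure D1:**
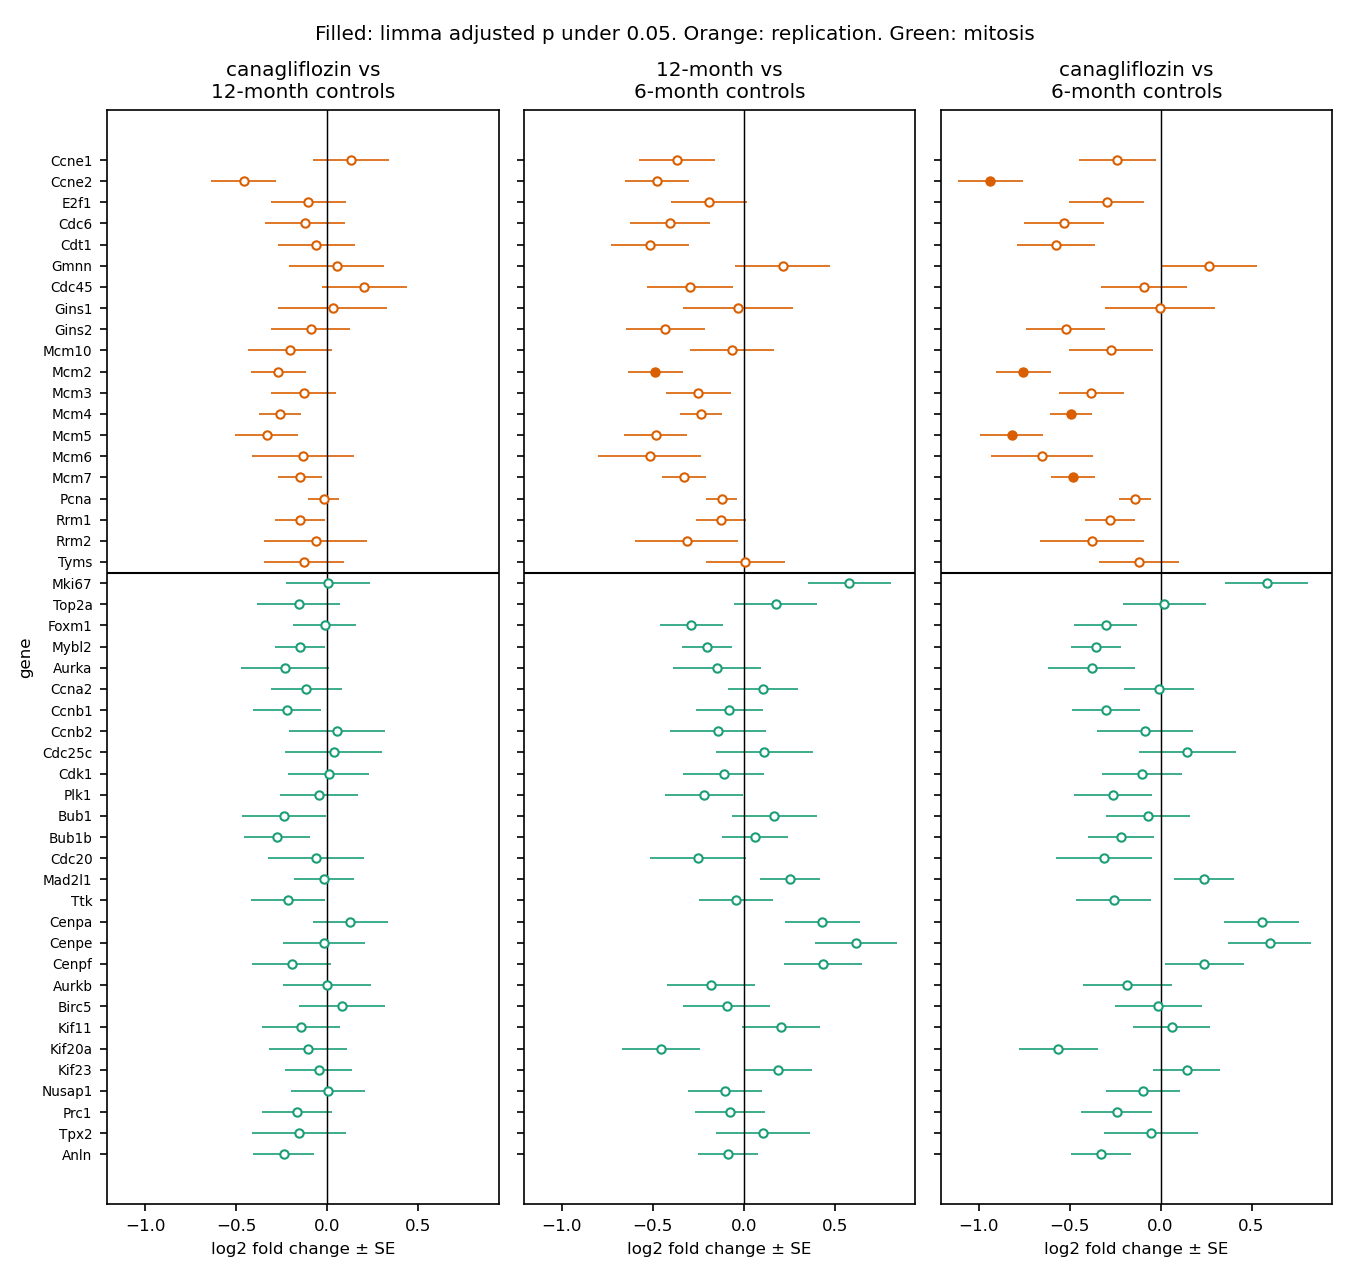
Log2 fold change of each gene (points, with SE bars) in 3 comparisons, replication genes in orange and mitosis genes in green, filled where limma's adjusted p was under 0.05. No point is filled for canagliflozin against 12-month controls, Mcm2 is filled for 12-month against 6-month controls, and Ccne2, Mcm2, Mcm4, Mcm5 and Mcm7 are filled for canagliflozin against 6-month controls.

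Age was examined by comparing 12-month with 6-month controls. The helicase subunit Mcm2 fell, and was the 1 gene of 48 called, beside 12.4% of all genes tested (7.01% lower). With a granulosa cell marker score as covariate, described further on, 21 of 48 were called, all lower, beside 9.49% of all genes. Whether these genes were called less or more often than the whole table thus turned with that covariate. The score was itself higher on average in 12-month controls, and adjusting for it lowers the fold changes of genes that rise with it. Replication genes leaned lower, with 18 of 20 below 0 on the log2 scale (median -0.30), while 15 of 28 mitosis genes were below 0 (median -0.06), beside 0.00 over all genes. At an unadjusted p under 0.05 there were 5 replication genes, all lower, and 2 mitosis genes, both higher, beside 4818 of all genes. The mitosis median was positive without 12-month control replicate 1 (0.04), without 12-month control replicate 4 (0.04) and without 6-month control replicate 2 (0.01). In bulk ovary, fewer cells of a type and less RNA per cell cannot be told apart.

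Mcm2 had 347, 450, 514, 335 and 575 normalised reads in 12-month control ovaries, against 703, 689, 600, 465 and 619 in 6-month control ovaries. The groups overlapped because 6-month control replicate 4, at 465, was below 2 of the 12-month controls. Mcm2 averaged 444 ± 104 in 12-month controls and 615 ± 94.98 in 6-month controls (SD, n = 5 each), a log2 fold change of -0.49 ± 0.15 (SE, limma adjusted p = 0.0472). This call held in 4 of 15 fits that left out 1 library (canagliflozin replicate 2, 12-month control replicates 3 and 5, and 6-month control replicate 4), and the adjusted p reached 0.116 in the others. DESeq2 called Mcm2 (adjusted p = 0.0304; 2 of 48 genes, beside 16.8% of all) and edgeR did not (adjusted p = 0.0579; 0 of 48 genes, beside 12.7% of all). In a limma fit of only the 2 control groups the 1 gene called was Cenpe, higher (adjusted p = 0.0458), and Mcm2 was not called.

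The 2 mitosis genes under an unadjusted p of 0.05 were Cenpe and Mki67. Cenpe, a kinesin that carries chromosomes to the spindle equator, had 166, 264, 233, 169 and 252 normalised reads in 12-month control ovaries, against 132, 162, 154, 94.1 and 165 in 6-month control ovaries. Every 12-month control was above every 6-month control, by a narrow margin of 166 against 165, which was the case for this gene alone of the 48, beside 5.63% of all genes. None of the 48 had every 12-month control below every 6-month control, beside 8.07% of all genes. The log2 fold change of Cenpe was 0.62 ± 0.23 (SE, limma adjusted p = 0.0898), which missed the threshold. Mki67, whose product Ki-67 coats mitotic chromosomes and is the usual stain for dividing cells, had 908, 1185, 1156, 816 and 1209 normalised reads in 12-month control ovaries, against 725, 836, 882, 428 and 719 in 6-month control ovaries. Only 12-month control replicate 4, at 816, lay within the range of the 6-month controls. Its log2 fold change was 0.58 ± 0.23 (SE, limma adjusted p = 0.113). Without canagliflozin replicate 2 in the shared fit, Mki67 and Cenpe were called higher (adjusted p = 0.0447 and 0.0376), while DESeq2 called Cenpe (adjusted p = 0.0409) and edgeR called neither.

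Canagliflozin against 6-month controls differs in both age and drug, and shares its groups with the comparisons above. The cyclin Ccne2 and the helicase subunits Mcm2, Mcm4, Mcm5 and Mcm7 fell. These 5 of 48 genes (10.4%) were called, beside 28.4% of all genes tested (14.9% lower). With the granulosa score as covariate 29 of 48 were called, all lower, beside 20.7% of all genes. The order of these shares, taken over all 48 in either direction, thus turned here too. All other values are from the fit without that covariate unless stated. All 5 were of the 20 replication genes (25%). For that module alone the share was below the 28.4% of all genes called in either direction, and already above the 14.9% called lower. The median log2 fold change of the replication genes was -0.38 with 19 of 20 negative, beside 0.01 over all genes. Of 28 mitosis genes limma called 0, with 2 lower and 3 higher at an unadjusted p under 0.05, and the median was -0.09. That median was 0.08 without canagliflozin replicate 2. In 3 replication genes (Ccne2, Mcm2 and Mcm5) and 1 mitosis gene (Mybl2, the factor B-Myb) every canagliflozin library was below every 6-month control, beside 10.4% of all genes, and in 0 of 48 was every one above, beside 8.05%. The 5 calls held in all 15 fits that left out 1 library.

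Of the 5 called genes, the cyclin stood farthest apart. Ccne2 had 60.8, 43.2, 38.5, 48.6 and 40.0 normalised reads in canagliflozin ovaries, against 98.6, 88.1, 89.6, 73.8 and 92.2 in 6-month control ovaries. That was 0.523-fold, a log2 fold change of -0.93 ± 0.18 (SE, limma adjusted p = 0.00125, n = 5 per group), and the 12-month controls given above lay between, overlapping both. Mcm2 had 361, 313, 410, 338 and 388 normalised reads in canagliflozin ovaries, below the 465 of the lowest 6-month control, and was 0.593-fold (log2 fold change -0.75 ± 0.15, SE, adjusted p = 0.00194). In Mcm5, another helicase subunit, values were 319, 271, 394, 302 and 348 in canagliflozin ovaries, 325, 431, 512, 301 and 526 in 12-month control ovaries, and 629, 671, 634, 404 and 566 in 6-month control ovaries. The highest canagliflozin library, at 394, was just below the lowest 6-month control, at 404, and the fold was 0.567 (log2 fold change -0.82 ± 0.17, SE, adjusted p = 0.00264).

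Smaller differences were measured for Mcm4 and Mcm7. Mcm4 had 364, 293, 333, 281 and 331 normalised reads in canagliflozin ovaries, 332, 415, 399, 330 and 444 in 12-month control ovaries, and 511, 478, 450, 361 and 463 in 6-month control ovaries. Canagliflozin replicate 1, at 364, was just above 6-month control replicate 4, and the other canagliflozin libraries were below all 6-month controls (log2 fold change -0.49 ± 0.12, SE, adjusted p = 0.00507). Mcm7 had 842, 578, 773, 615 and 721 normalised reads in canagliflozin ovaries, 690, 798, 944, 668 and 811 in 12-month control ovaries, and 919, 1093, 1006, 828 and 1054 in 6-month control ovaries. Again only canagliflozin replicate 1 reached into the range of the 6-month controls (0.717-fold, log2 fold change -0.48 ± 0.12, SE, adjusted p = 0.0081). For Mcm4 and Mcm7, edgeR fitted without the 3 libraries whose scaling step is close to 1 gave adjusted p = 0.0559 and 0.0979.

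**Figure D2:**
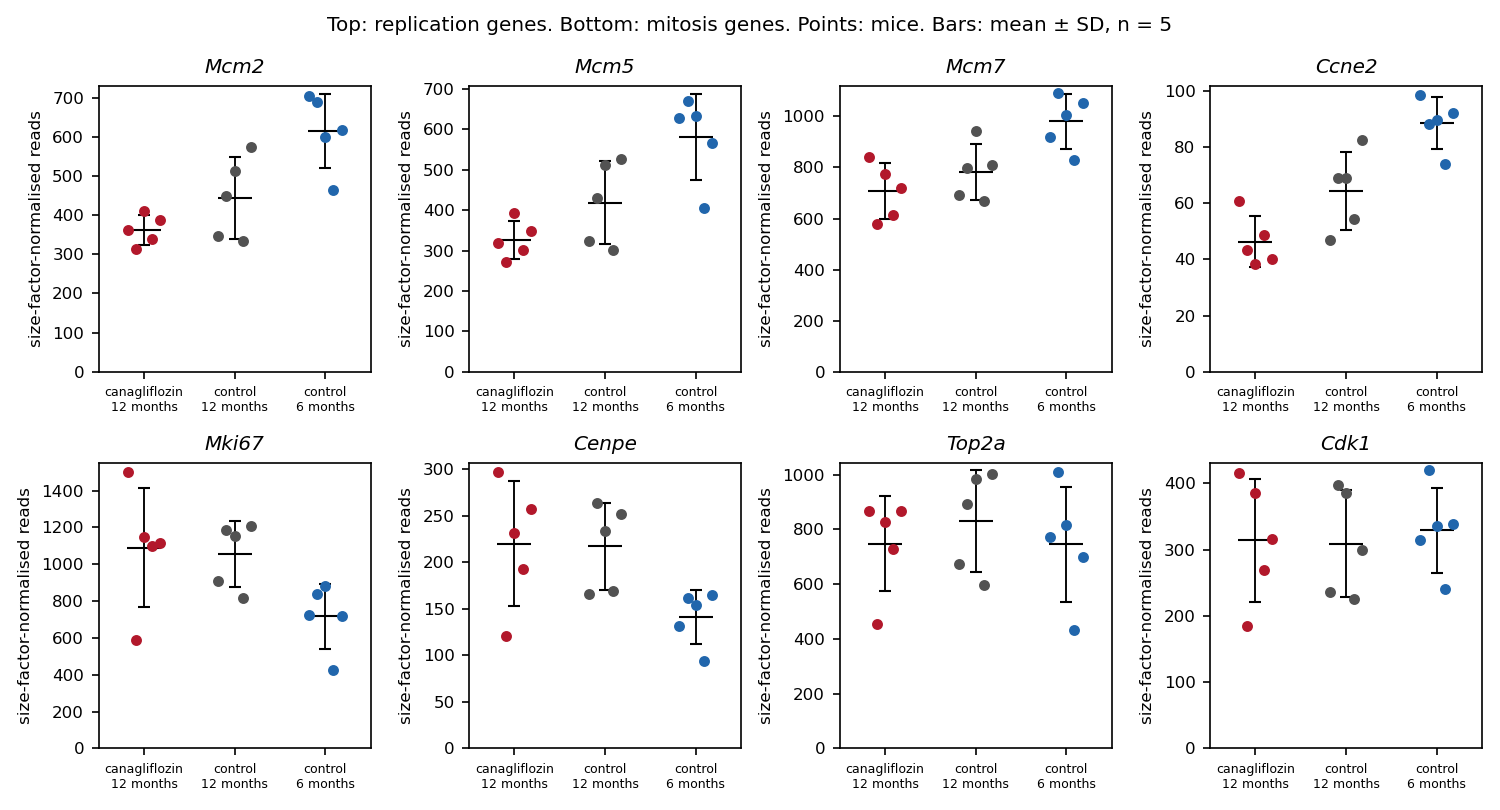
Size-factor-normalised reads of 8 genes (points are mice, horizontal bars with whiskers are mean ± SD, n = 5) in canagliflozin, 12-month control and 6-month control ovaries. Mcm2 averaged 362 with canagliflozin, 444 in 12-month controls and 615 in 6-month controls, while Mki67 averaged 1090.2, 1055 and 718 in the same groups.

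Other steps of replication gave the following values between canagliflozin and 6-month controls. All 10 genes of the replicative helicase and its activators had a negative log2 fold change, from -0.82 (Mcm5) to -0.00 (Gins1), with a median of -0.49. Mcm6 had the widest spread of the replication genes in the 12-month controls and had 410, 256, 530, 521 and 473 normalised reads in canagliflozin ovaries, 308, 400, 682, 306 and 848 in 12-month controls, and 704, 840, 490, 627 and 725 in 6-month controls. Its coefficient of variation in the 12-month controls was 47.96%. Between canagliflozin and 6-month controls its log2 fold change was -0.65 ± 0.28 in the fit of all 15 libraries (SE, limma adjusted p = 0.0956), and Mcm6 was called in the fit of only those 2 groups (adjusted p = 0.0340). Gins1 differed from its partner Gins2, a subunit of the same complex. Gins1 averaged 66.7 ± 28.2 in canagliflozin ovaries and 63.5 ± 14.5 in 6-month control ovaries, and Gins2 107 ± 25.7 and 153 ± 27.8 in the same order of groups (SD, n = 5 each). Neither passed the test in the main fit. With the granulosa score as covariate both were called lower, beside 10.9% of all genes called lower in that fit. The difference between them was not tested.

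The licensing genes did not lean one way. Cdt1, which loads the helicase, had a log2 fold change of -0.57 ± 0.21 (SE, limma adjusted p = 0.0532) between canagliflozin and 6-month controls and -0.52 ± 0.21 (adjusted p = 0.127) between 12-month and 6-month controls. Cdc6, its partner in loading, had -0.53 ± 0.22 (adjusted p = 0.0813) and -0.41 ± 0.22 (adjusted p = 0.245) in the same comparisons. Gmnn, which encodes geminin, the inhibitor of Cdt1 after S phase has begun, had positive values of 0.27 ± 0.26 and 0.21 ± 0.26, far from the threshold. Of the drivers, E2f1 averaged 149 ± 31.5 in canagliflozin ovaries, 164 ± 52.7 in 12-month controls and 180.5 ± 15.1 in 6-month controls (SD, n = 5 each), with no comparison past the test without the covariate.

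None of the clamp and nucleotide supply genes was called in the main fit. With the granulosa score as covariate Rrm1, Rrm2 and Tyms were called lower in canagliflozin than in 6-month controls, beside 10.9% of all genes called lower. Pcna had 982, 813, 949, 788 and 963 normalised reads in canagliflozin ovaries, 808, 1028, 912, 846 and 959.5 in 12-month control ovaries, and 1024, 1029, 1013, 938 and 939 in 6-month control ovaries. The groups overlapped and Pcna had the lowest coefficient of variation of the replication genes in each group, 10.1%, 9.67% and 4.68% in that order. Its log2 fold change was -0.14 ± 0.09 between canagliflozin and 6-month controls (SE, limma adjusted p = 0.236). Rrm1 and Rrm2, the subunits of ribonucleotide reductase, and Tyms, which makes thymidylate, had log2 fold changes of -0.28, -0.38 and -0.12 in that comparison, none past the test. Mcm10, the replication gene lowest per kilobase, had 108, 52.1, 126, 118 and 90.1 normalised reads in canagliflozin ovaries, 78.3, 105, 137, 90.2 and 155 in 12-month controls, and 128, 117, 126, 96.7 and 109 in 6-month controls. Canagliflozin replicate 2 was the lowest of these and the groups overlapped.

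Mitosis genes as a module had medians near 0 on the log2 scale without a covariate, with single genes on either side, and medians of -0.39 (12-month against 6-month controls) and -0.49 (canagliflozin against 6-month controls) with the granulosa score. The kinetochore and centromere genes had positive values between canagliflozin and 6-month controls. Cenpa, the histone H3 variant that marks centromeres, had 616, 267, 475, 672 and 484 normalised reads in canagliflozin ovaries, 544, 447, 435, 425 and 364 in 12-month control ovaries, and 295, 429, 357, 259 and 314 in 6-month control ovaries. Canagliflozin replicate 2, at 267, made these groups overlap, and the other 4 canagliflozin libraries were above every 6-month control. Its log2 fold change was 0.56 ± 0.21 (SE, limma adjusted p = 0.0546, canagliflozin against 6-month controls). Cenpe had 297, 121, 231, 192 and 257 normalised reads in canagliflozin ovaries and a log2 fold change of 0.60 ± 0.23 (adjusted p = 0.0596), and Cenpf, another kinetochore protein, had 0.24 ± 0.22 (adjusted p = 0.424). Mki67 had 1499, 590.0, 1145, 1099 and 1117 normalised reads in canagliflozin ovaries, of which all but replicate 2 were above the highest 6-month control, with a log2 fold change of 0.58 ± 0.23 (adjusted p = 0.0683). The count tests on recovered reads put Cenpa, Cenpe and Mki67 past the threshold, with adjusted p of 0.0309, 0.0392 and 0.0485 by edgeR and 0.0153, 0.0195 and 0.0257 by DESeq2. In all, edgeR called 8 of 48 genes in this comparison, beside 29.4% of all genes, and DESeq2 called 10, beside 32.8%.

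No gene of mitotic entry was called without a covariate. With the granulosa score 5 of 7 (Cdk1, Plk1, Ccnb2, Ccnb1 and Aurka) were called lower in canagliflozin than in 6-month controls (limma adjusted p from 0.00806 to 0.0257). In that fit 10.9% of all genes were called lower. The score was higher on average in canagliflozin ovaries, which lowers these fold changes. Cdk1, the kinase that drives entry, had 415, 185, 386, 269 and 315 normalised reads in canagliflozin ovaries, 236, 398, 386, 226 and 299 in 12-month control ovaries, and 315, 419.7, 335, 239.9 and 338 in 6-month control ovaries. The 3 groups covered much the same range, and log2 fold changes ran from -0.11 to 0.01 over the 3 comparisons. Ccnb1, the cyclin B partner of Cdk1, had 246, 124, 228, 192 and 220.2 normalised reads in canagliflozin ovaries, 178, 252, 276, 198 and 258 in 12-month control ovaries, and 241, 268, 243, 181 and 293 in 6-month control ovaries. Its largest difference, -0.30 ± 0.19 between canagliflozin and 6-month controls, missed the threshold (SE, limma adjusted p = 0.241). Cdc25c had 87.6, 32.8, 71.0, 56.5 and 64.1 normalised reads in canagliflozin ovaries, 46.8, 56.3, 87.2, 40.0 and 71.2 in 12-month controls, and 56.9, 68.1, 59.4, 36.5 and 52.5 in 6-month controls. All 7 genes of this role, which also include Aurka, Ccna2, Ccnb2 and Plk1, missed the threshold in every comparison without a covariate, the smallest adjusted p being 0.241.

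Top2a, the topoisomerase that untangles sister chromatids, had 865, 453, 828, 728 and 866 normalised reads in canagliflozin ovaries, 672, 894, 983, 595 and 1003 in 12-month control ovaries, and 773, 1008, 815, 432 and 697 in 6-month control ovaries. Its groups overlapped, with log2 fold changes from -0.16 to 0.18. Cdc20 had 336, 142, 355, 274 and 252 normalised reads in canagliflozin ovaries, 209, 327, 359, 199 and 296 in 12-month control ovaries, and 348, 434, 381, 187 and 321 in 6-month control ovaries. It leaned lower at 12 months in both groups without passing the test (log2 fold change -0.31 ± 0.26 for canagliflozin and -0.25 ± 0.26 for 12-month controls, each against 6-month controls, SE). Kif20a, a kinesin of the central spindle, was the mitosis gene with the most negative value. It averaged 171 ± 38.0 in canagliflozin ovaries, 183 ± 37.4 in 12-month controls and 256 ± 67.5 in 6-month controls (SD, n = 5 each), with a log2 fold change of -0.56 ± 0.21 between the first and the last (SE, limma adjusted p = 0.0612). Mybl2 and Foxm1, the transcription factors of the mitotic wave, had values of -0.35 (adjusted p = 0.0625) and -0.30 in that comparison, and Anln, a scaffold of the cleavage furrow, -0.33 (adjusted p = 0.154).

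Because depth and scaling act on all genes of a library alike, ratios of genes within a library were also formed. These ratios were chosen after the values had been seen, and carry no test. Mki67 over Mcm2 was 1.89 to 4.15 in canagliflozin ovaries and 2.10 to 2.63 in 12-month controls, against 0.922 to 1.47 in 6-month controls, so that neither 12-month group overlapped the 6-month controls. Cdt1 over its inhibitor Gmnn was 0.854 to 1.45 in canagliflozin ovaries and 0.796 to 1.37 in 12-month controls, against 1.73 to 2.20 in 6-month controls, again without overlap. Ccne2 over Ccne1 was 0.709 to 1.11 in canagliflozin ovaries, against 1.15 to 1.69 in 12-month controls and 1.21 to 1.79 in 6-month controls, and here the canagliflozin libraries stood apart from both control groups. The mean log2 level of replication genes minus that of mitosis genes was -0.57 to -0.14 in canagliflozin ovaries and -0.51 to -0.25 in 12-month controls, against -0.20 to 0.06 in 6-month controls, where canagliflozin replicate 2, at -0.14, lay in the 6-month range and the other 4 canagliflozin libraries and all 12-month controls lay below it.

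**Figure D3:**
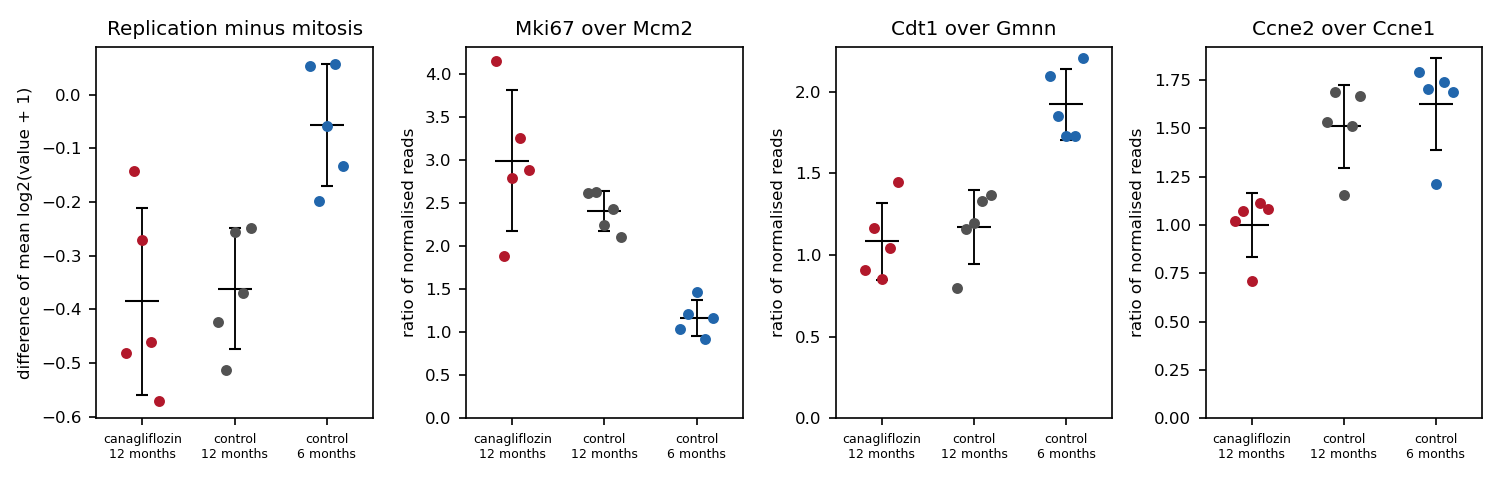
Values formed within each library (points are mice, bars are mean ± SD, n = 5) in canagliflozin, 12-month control and 6-month control ovaries, from left the replication minus mitosis difference in mean log2 level and the ratios Mki67 over Mcm2, Cdt1 over Gmnn and Ccne2 over Ccne1. Mki67 over Mcm2 averaged 2.99 with canagliflozin, 2.41 in 12-month controls and 1.16 in 6-month controls.

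Within each group the genes moved together from mouse to mouse, and a few libraries set the extremes. Canagliflozin replicate 2 was the lowest of its group in 44 of 48 genes, including all 28 of mitosis, and replicate 1 the highest in 31. In the 12-month controls replicate 4 was lowest in 35 genes and replicate 3 highest in 22, and in the 6-month controls replicate 4 was lowest in 46 and replicate 2 highest in 28. Median coefficients of variation of mitosis genes were 27.2% in canagliflozin ovaries, 21.1% in 12-month controls and 21.1% in 6-month controls, and those of replication genes 20.3%, 25.3% and 18.2% in the same order. Without canagliflozin replicate 2 and 6-month control replicate 4, a choice made after seeing the data, 10 genes were called between canagliflozin and 6-month controls, beside 25.3% of all genes. They were Ccne2, Cdt1, Mcm2, Mcm4, Mcm5, Mcm7 and Kif20a, lower, and Cenpa, Cenpe and Mki67, higher. In the same fit 5 genes were called between 12-month and 6-month controls, beside 11.5% of all genes, all lower (Cdt1, Mcm2, Mcm5, Mcm7 and Kif20a), and still 0 of 48 between canagliflozin and 12-month controls.

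**Figure D4:**
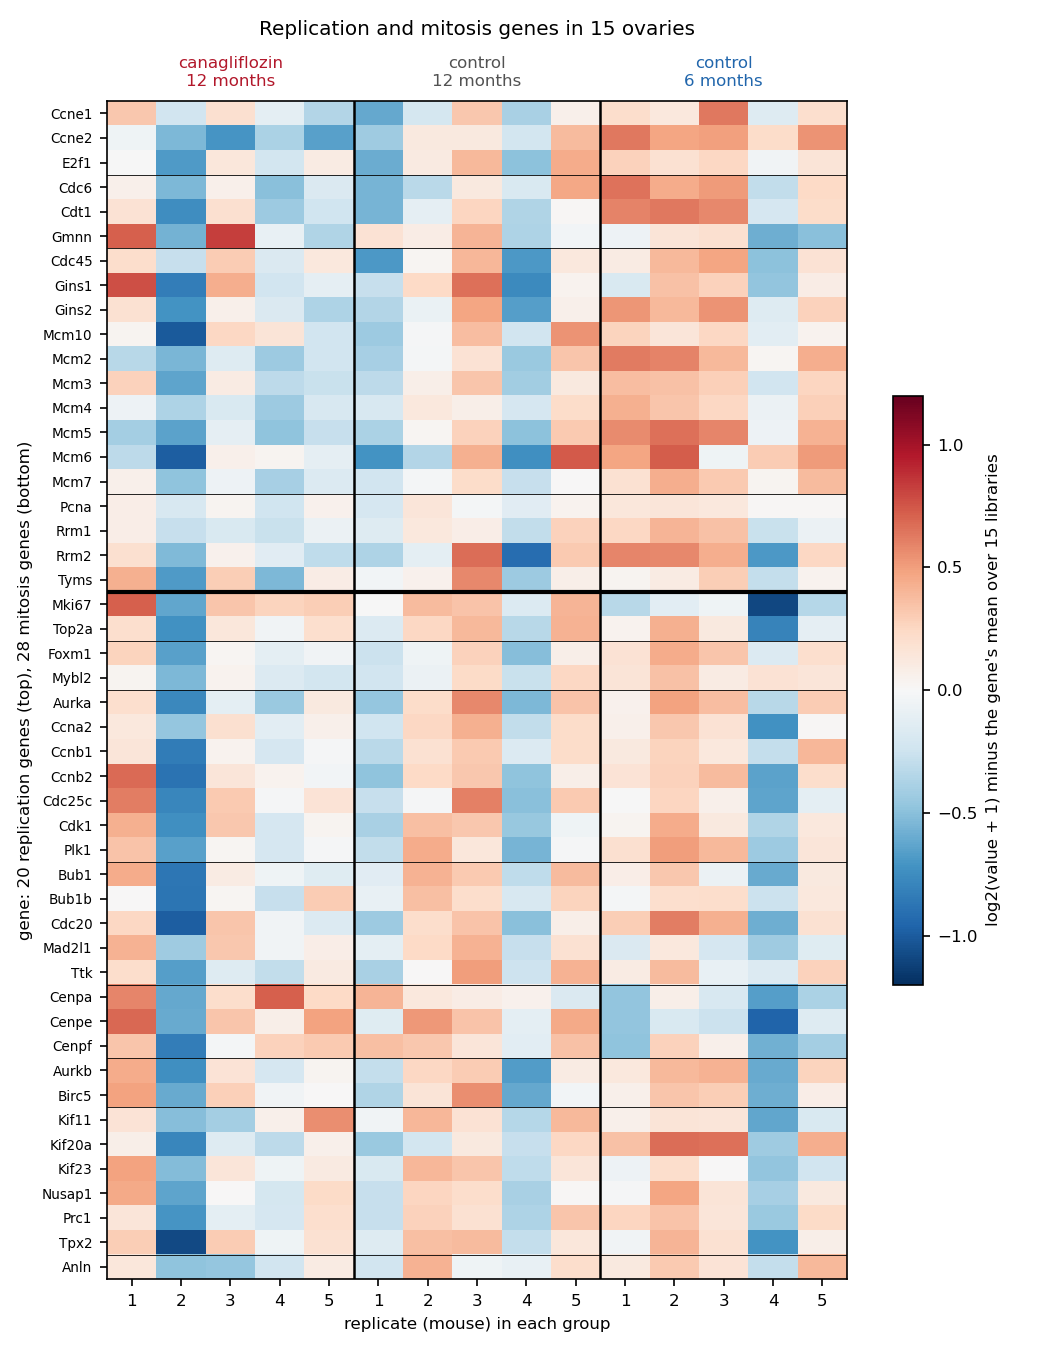
Level of each of the 48 genes (rows, replication above and mitosis below, ordered by role) in each of 15 ovaries (columns, canagliflozin, 12-month controls and 6-month controls), as log2(value + 1) minus the gene's mean. Canagliflozin replicate 2 and 6-month control replicate 4 are blue through most rows, and the MCM rows are red in most 6-month controls.

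Variation between mice was also set against granulosa cell markers. A score was formed from 13 such markers, and its slope was fitted with the group in the model for all 17569 genes. The slope was positive for all 48 genes, with a median of 0.73 log2 units per log2 unit of score, and was called for 28 of 48 (58.3%), all positive, beside 5.82% of all genes tested (3.67% positive). By module these were 19 of 28 mitosis genes and 9 of 20 replication genes. Mcm3, a helicase subunit, had the smallest adjusted p (slope 0.82 ± 0.09, SE, limma adjusted p = 0.0012, n = 15 libraries). Ccnb2, Cdc20, Birc5 and Aurkb, of mitotic entry, anaphase and the chromosomal passenger complex, had slopes of 1.14, 1.12, 1.04 and 1.03. Without canagliflozin replicate 2 the count was 9 genes, with 145 genes called in the whole table, and without 12-month control replicate 3 it was 17, with 168. The oocyte score, from 14 markers that passed the filter, gave positive slopes for all 48 genes with a median of 0.37 and called 0 by limma, beside 0.603% of all genes, with 11 of 48 at an unadjusted p under 0.05. Whether the 2 slopes differ was not tested.

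The summed granulosa markers overlapped between all groups. Their level ran from 44068 to 93585 normalised reads in canagliflozin ovaries (median 58559.9) and from 42306 to 84024 in 12-month controls (median 61291), against 27563 to 52213 in 6-month controls (median 47032). Of the 13 markers, Inhba and Nr5a2 (15.4%) were called higher in 12-month than in 6-month controls, and 0 were called lower. Of all genes 12.4% were called there in either direction, 7.01% lower. Inhba, Nr5a2 and Serpine2 (23.1%) were called higher in canagliflozin ovaries than in 6-month controls, and 0 lower. Of all genes 28.4% were called there in either direction, 14.9% lower. Between canagliflozin and 12-month controls 0 of 13 were called. In these 13 markers log2 fold changes ran from -0.29 to 1.93 in the age comparison, where 3 were negative. They ran from -0.44 to 2.06 for canagliflozin against 6-month controls, where 4 were negative. The score thus does not describe every marker. The oocyte markers summed to between 2015 and 3955 in canagliflozin ovaries, 3084 and 4615 in 12-month controls, and 3302 and 4896 in 6-month controls. The score used as covariate ran from 10.90 to 11.67 in 12-month controls (mean 11.24), against 10.18 to 10.93 in 6-month controls (mean 10.75). In canagliflozin ovaries it ran from 10.69 to 11.78 (mean 11.19). It thus partly followed the groups, and the slopes of all 48 genes on it were positive. Adjusting for it therefore lowers their fold changes against 6-month controls. Whether the calls stand apart from this shift was not tested. With the granulosa score as a covariate, 21 of 48 genes were called between 12-month and 6-month controls. These were 13 of replication and 8 of mitosis, all lower, beside 9.49% of all genes (4.36% lower). Between canagliflozin and 6-month controls 29 were called in that fit (16 and 13), again all lower, beside 20.7% of all genes (10.9% lower). Median log2 fold changes were then -0.67 for replication and -0.39 for mitosis in the age comparison, and -0.67 and -0.49 for canagliflozin against 6-month controls, while 0 of 48 were called between canagliflozin and 12-month controls, beside 0.0968% of all genes. Summed B and plasma cell markers, of lineages that can also divide, were 471 to 621 in canagliflozin ovaries and 289 to 699 in 12-month controls, against 132 to 173 in 6-month controls. T and NK cell markers were 148 to 358 in canagliflozin ovaries and 187 to 399 in 12-month controls, against 125 to 168 in 6-month controls. Of 6 tested B and plasma cell markers 3 were called, all higher, in each 12-month group against 6-month controls. Their log2 fold changes ran from -0.04 to 3.98 (12-month controls) and -0.16 to 4.31 (canagliflozin), so the sums do not describe every marker. Of 6 tested T and NK cell markers 2 and 3 were called higher and 0 lower, beside 12.4% and 28.4% of all genes called in either direction. Stromal markers ran lower, at 11060 to 16736 in canagliflozin ovaries and 11125 to 21404 in 12-month controls, against 19821 to 28900 in 6-month controls, and 3 of 6 were called lower in canagliflozin than in 6-month controls. In that comparison 3 of 6 smooth muscle and pericyte markers and 3 of 8 macrophage markers were also called lower. For these 3 lists that was 50%, 50% and 37.5%, beside 14.9% of all genes called lower. Of 4 fat cell markers 3 were called higher and 1 lower, beside 28.4% of all genes called in either direction. Called there were also 3 of 7 endothelium markers (42.9%, 2 higher and 1 lower) and 2 of 10 corpus luteum markers (20%, 1 higher and 1 lower). So were 1 of 5 theca markers (20%, lower) and 2 of 14 oocyte markers (14.3%, both lower), beside the same 28.4%. Of 7 surface epithelium, 5 red cell and 3 oviduct epithelium markers 0 were called. The part of these cells in the values of the 48 genes was not tested.

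**Figure D5:**
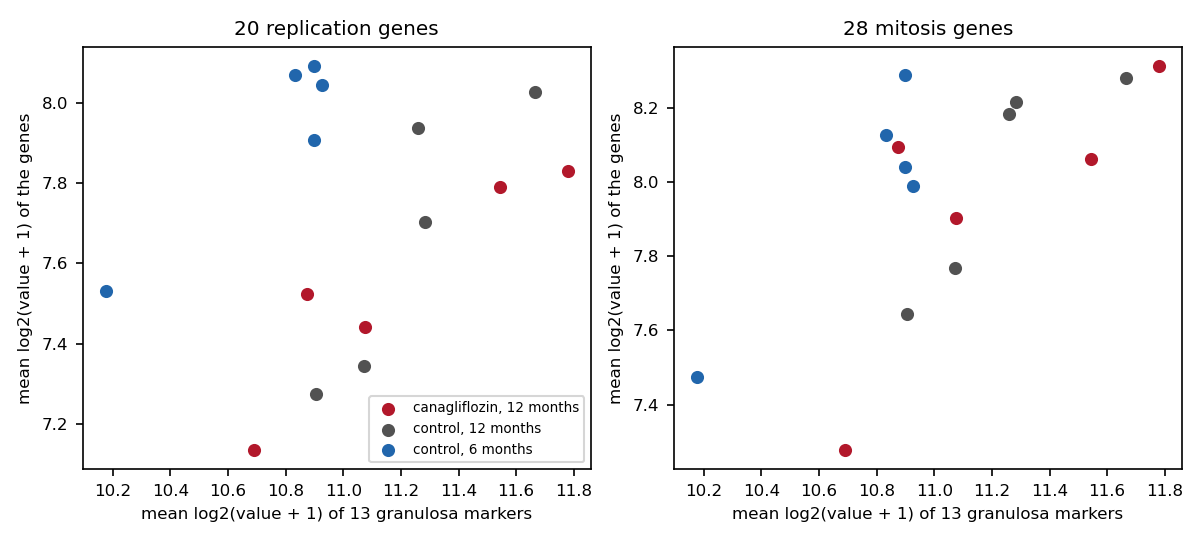
Mean log2 level of the 20 replication genes (left) and the 28 mitosis genes (right) against the mean log2 level of 13 granulosa cell markers (points are ovaries; canagliflozin, 12-month control and 6-month control). In each group the ovary with the lowest marker score has the lowest mean of both gene sets, while the order of the other ovaries does not follow the score throughout, and the median marker score was 11.1 with canagliflozin and 11.3 in 12-month controls, against 10.9 in 6-month controls.

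Counted in either direction, other genes of the same pathways were called at shares near or below those of all genes. Those were 12.4% between 12-month and 6-month controls and 28.4% between canagliflozin and 6-month controls. The counts that follow describe the lists, which were not tested as sets. Of 47 other replication genes, 1 was called higher and 4 lower in 12-month than in 6-month controls (10.6%), and 3 higher and 6 lower in canagliflozin than in 6-month controls (19.1%), while 0 were called between canagliflozin and 12-month controls (1 at an unadjusted p under 0.05). Rpa1, the large subunit of the protein that coats single-stranded DNA, averaged 547 ± 62.8 in canagliflozin ovaries, 698 ± 69.8 in 12-month controls and 1034 ± 121 in 6-month controls (SD, n = 5 each). Rpa1 fell to 0.529-fold in canagliflozin ovaries and to 0.676-fold in 12-month controls, each relative to 6-month controls, and both calls held in all 15 fits that left out 1 library. Also lower in both comparisons were Pold2, a subunit of DNA polymerase delta, Pola2, a subunit of DNA polymerase alpha with primase, and Uhrf1, which maintains DNA methylation behind the fork. Uhrf1 fell to 0.600-fold in canagliflozin ovaries relative to 6-month controls. Orc4, an origin recognition subunit, was higher in both, at 1.48-fold in canagliflozin ovaries and 1.40-fold in 12-month controls relative to 6-month controls.

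Of 66 other mitosis genes 65 passed the filter, and 7.69% of them were called between canagliflozin and 6-month controls and 4.62% between 12-month and 6-month controls, beside the same 28.4% and 12.4% of all genes. Between canagliflozin and 6-month controls 2 were called higher (Kif20b, a kinesin of cytokinesis, and Pttg1, securin) and 3 lower (Ncapd2, a condensin subunit, Gtse1, a microtubule-binding protein, and Iqgap3), and between 12-month and 6-month controls 1 higher (Kif20b) and 2 lower (Iqgap3 and Ncapd2). None of the 65 was called between canagliflozin and 12-month controls by limma, with 1 at an unadjusted p under 0.05. Of 13 G1 cyclins and kinases, 4 (30.8%) were called lower in canagliflozin than in 6-month controls (Mnat1, Wee1, Cdc25b and Cdk2). Wee1, the kinase that restrains Cdk1, and Cdc25b, a phosphatase that activates it, were also lower in 12-month than in 6-month controls (15.4%). None of the 13 was called higher in either comparison. Both shares were near the 28.4% and 12.4% of all genes called in either direction, and above the 14.9% and 7.01% called lower. Wee1 averaged 154 ± 65.1 in canagliflozin ovaries, 168 ± 22.4 in 12-month controls and 269 ± 28.02 in 6-month controls (SD, n = 5 each). Cdk2, the kinase partner of cyclin E, fell to 0.813-fold in canagliflozin ovaries relative to 6-month controls (limma adjusted p = 0.00792). Of 10 inhibitors and pocket proteins Rb1, which holds E2F factors in check, was higher in canagliflozin ovaries (1.32-fold) and in 12-month controls (1.31-fold) than in 6-month controls, and Cdkn2c was lower in canagliflozin ovaries. Of 14 tested genes of the E2F family and MuvB complex, E2f6, a repressor, was lower in canagliflozin than in 6-month controls (0.681-fold, adjusted p = 0.0043) and none was called in the other 2 comparisons, with 3 at an unadjusted p under 0.05 between 12-month and 6-month controls and 1 between canagliflozin and 12-month controls. Several of these calls were lost when 1 library was left out, among them Pttg1, which held in 5 of 15 such fits.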

How the data were processed

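RNA of 15 ovaries was sequenced by the submitters from directional polyadenylated libraries on a NovaSeq instrument, per the labels' protocols. The submitters' processing notes name Partek 11.0 and the mm39 build, and how reads were aligned, counted and normalized is not given in the sources used here. The deposited signal was found, from the values themselves, to be whole reads of each gene scaled by the authors with a factor of the library. Reads were recovered as whole multiples of each library's step, with at least 99.99% of values whole within 0.1 of a read, and recovered depth was 8472205 to 13629491 reads per library. The depth stated in the labels is far lower, and the difference was not resolved. Depth limits the precision of low genes, and errors over mice include it. Columns were matched to samples by their names in the labels, 2 blank columns were not used, and no pair of libraries agreed within counting noise.

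Because the unit is not a count, limma 3.58.1 in R 4.3.3 (trend and robust) was fitted to log2(value + 1) of all 15 libraries with 3 group means. Tested were the 17569 genes that reached 10 in 5 or more libraries, which removed 7087, with Benjamini-Hochberg adjustment over all of them. The test was checked on simulated reads. Alternatives were edgeR 4.0.16 and DESeq2 1.42.0 on recovered reads, pseudocounts of 0.5 and 5, no filter and a minimum value of 50, only the 2 groups compared, marker scores as covariates, array weights, rescaling by TMM, a threshold of 0.1, a replicate block, and each library left out. Chosen after the data had been seen were edgeR on 12 libraries, leaving out canagliflozin replicate 2 with 6-month control replicate 4, and the mean level of the mitosis genes as a covariate. The labels do not say more of how mice were housed or paired. The p-values set differences between groups against the spread between libraries within the groups. Each of the 15 libraries is taken to be 1 mouse, which the labels describe only for the canagliflozin and 12-month control groups.

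The genes, the lists of other genes and markers, and the rules were chosen with earlier results of these data known. Values in every library are given for genes called in any comparison, for Mki67, Top2a, Pcna, Mcm2, Cdk1 and Ccnb1, for the smallest p per module and comparison, and for the highest and lowest level per module. Of other lists up to 4 genes with the smallest p were named. The count of 15 promoters of replication and 22 of mitosis genes comes from RefSeq of build GRCm38.p6, and exon lengths from GENCODE of GRCm38, used only to set levels per kilobase. Promoters were not analysed here for Ccna2, Gins1, Ccne2, Gins2, Kif20a, Cdc25c, Gmnn, Foxm1, Aurkb, Tpx2 and Mcm4.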

Additional observations from a re-analysis of the deposited data

Results flagged for a closer look

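Each of the 48 genes was examined in each group of 5 mice, 144 groups in all, for a mouse whose distance from the nearest other was above 0.71 of the range of the group, and 3 were found. Chance flags about 1 in 20 such groups, which is more than were found. Mcm3, a helicase subunit, had 471 normalised reads in 6-month control replicate 4, against 661 to 716 in the other 4 mice. Ccnb2, a B-type cyclin, had 145 normalised reads in the same library, against 253 to 294 in the others. Mybl2 had 216 normalised reads in 6-month control replicate 2, against 181 to 191 in the others.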

How the results depend on the processing

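Between canagliflozin and 12-month controls 0 of 48 genes were called under all alternatives run. Between 12-month and 6-month controls, where 1 was called, the count was 0 by edgeR on all or on 12 libraries, with no filter and with TMM rescaling, 2 by DESeq2, with the oocyte score and with the replicate block, 5 without both low libraries and at a threshold of 0.1, 6 with array weights, 9 with the mean of the mitosis genes as covariate and 21 with the granulosa score. That mean includes the mitosis genes tested, so counts with it describe departures from the mean and lend no support to a call. Of all genes, 12.4% were called for age in the main fit, 12.7% by edgeR on all libraries and 16.8% by DESeq2. The shares were 11.5% without both low libraries and 9.49% with the granulosa score. Between canagliflozin and 6-month controls, where 5 were called, the count was 3 by edgeR on 12 libraries, 8 by edgeR and with array weights, 10 by DESeq2 and without both low libraries, 14 at a threshold of 0.1, 16 with the mitosis mean and 29 with the granulosa score. Of all genes, 28.4% were called there in the main fit, 29.4% by edgeR on all libraries and 32.8% by DESeq2. The shares were 25.3% without both low libraries and 20.7% with the granulosa score. No share of all genes is set beside the counts from the other alternatives, so those are not read against the whole table. Leaving out 1 library gave 0 to 3 genes in the age comparison and 5 to 10 for canagliflozin against 6-month controls, with 8 without canagliflozin replicate 2 and 10 without 6-month control replicate 4. With the granulosa score the median log2 fold changes were -0.67 and -0.39 (replication and mitosis, age) and -0.67 and -0.49 (canagliflozin against 6-month controls). These medians are lowered by the higher mean score of both 12-month groups. Slopes on the granulosa score were called for 28 genes, and for 9 to 33 with 1 library left out, of which 9 without canagliflozin replicate 2 and 17 without 12-month control replicate 3. With the replicate block 0 slopes were called, among 0 of all genes. The cause of these changes was not tested. Same-numbered libraries did not deviate together (correlations from -0.30 to 0.25, and 2 of 15 best with their own number), so the numbers do not pair the mice and the block is given for completeness. Mcm2, Ccne2, Mcm4, Mcm5 and Mcm7, the genes called in the main limma fit, kept their direction under all alternatives run. In the fit of only the 2 groups compared the age count stayed at 1 but the gene was Cenpe, not Mcm2, and Mcm6 joined the 5 for canagliflozin against 6-month controls. Some genes called lower with the granulosa score had the other sign elsewhere, such as Gins1 for age (-0.66 with the score, 0.04 by edgeR on 12 libraries) and Tyms for canagliflozin against 6-month controls (-0.50 and 0.07). At 22 reads or more behind every value, counting limits mainly the lowest genes.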
